A study of Lathyrus oleraceus subsp. biflorus and Lathyrus oleraceus and [Pisum sativum] subsp. abyssinicum with 117 samples.

Results

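Seed coat and embryo were compared at the second of 5 seed stages, labelled D2, in 5 lines of pea (Pisum). The comparison used every library of the main set at that stage, 20 of the 117 RNA-seq libraries of the series, with 10 from seed coat and 10 from embryo. Each line gave 2 seed coat and 2 embryo libraries. Wild P. elatius was represented by JI64 and JI1794. Domesticated P. sativum was represented by the cultivar Cameor and the landrace JI92, and the Ethiopian pea P. abyssinicum by PI358617. All plants grew untreated in a glasshouse, and the seed coat and the embryo were isolated from the seed. The labels do not give the age of a D2 seed, nor whether both libraries of a line and tissue came from different plants. JI261, a wild pea sampled at other stages but with no D2 library, served here to define lists of genes.

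The seed coat is maternal tissue that surrounds the embryo. It passes sugars and amino acids to the growing embryo and later becomes the protective layer of the dry seed. The pea embryo fills its cotyledons with starch and storage proteins, and transcripts of storage protein genes are known to be very abundant in legume cotyledons during filling. Gene names are not paired with identifiers in the deposited files, so genes are given below by identifier and by lists, and no function is given to an identifier.

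The libraries held 62.6 to 87.1 M (mega) counts in seed coats and 58.1 to 77.8 M counts in embryos. The files listed 59594 features, with 27650 identifiers from Psat1g to Psat7g and 4207 in the Psat0s series, and 27737 were loci outside the annotation (prefix Ps_DOR2genes). Replicate libraries had a median Spearman correlation of 0.977 in seed coats and 0.970 in embryos over the 36015 features tested (5 pairs each). Over the 21801 tested features of Psat1g to Psat7g, the seed coats of 2 lines correlated at a median of 0.906 and the embryos of 2 lines at 0.909 (10 pairs each), whereas the seed coat and the embryo of a line correlated at 0.783 (5 lines). Over all tested features these medians were 0.826, 0.814 and 0.829, so that with the loci outside the annotation included the tissues of a line were about as similar as the same tissue of different lines. These correlations are across features, which are not independent replicates.

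Seed coats spread their counts over many genes and embryos concentrated them in few. The 100 most abundant features of a library held 18.6% to 31.99% of the counts in seed coats, with a median of 26.6%, against 44.9% to 66.4% in embryos, with a median of 56.2%. No seed coat library reached the lowest embryo library. Averaged by line, the share was 26.0% ± 4.45 in seed coats and 56.4% ± 7.87 in embryos (SD, n = 5 lines), a difference of -30.5 percentage points that had the same sign in 5 of 5 lines (exact paired permutation test over lines, two-sided, p = 0.0625, the smallest p that 5 pairs allow). The number of features that together held 50% of the counts ran from 472 to 1213 in seed coats and from 18 to 163 in embryos. In the embryos of PI358617, 18 features sufficed in each library, and in the seed coats of Cameor 1213 and 1212 were needed.

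Seed coats also had more features above a low level. The number with at least 1 CPM (counts as a share of the library total, in parts per M) was 18819 ± 669 in seed coats and 16176 ± 280 in embryos (SD, n = 5 lines). The difference of 2643 features was positive in 5 of 5 lines (exact paired permutation test, two-sided, p = 0.0625, again the smallest possible). Since a few features took most embryo counts, fewer counts were left for the others, and the part of this in the difference was not tested.

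**Figure D1:**
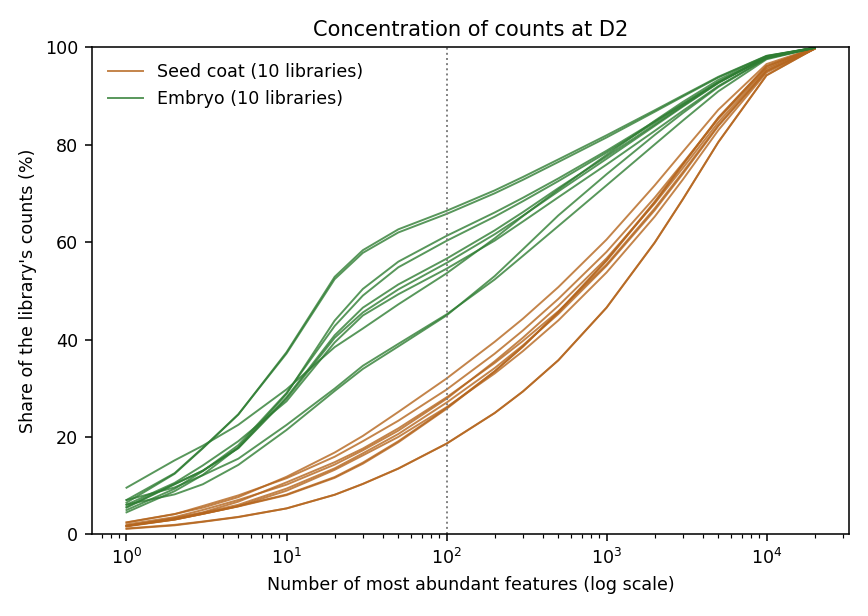
Cumulative share of a library's counts (vertical axis, %) held by its most abundant features (horizontal axis, number of features, log scale), 1 line per library, 10 seed coat and 10 embryo libraries. At 100 features (dotted line) the seed coats lie between 18.6% and 31.99% and the embryos between 44.9% and 66.4%.

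Few of the most abundant features were common to the tissues. Within a line, 10 to 17 features stood among the 100 most abundant of both tissues. Among the 100 most abundant features of a tissue in each line, 44 were common to all 5 lines in seed coats and 53 in embryos. Features of the Psat0s series held 8.44% to 9.90% of seed coat counts and 18.3% to 24.04% of embryo counts, with no overlap between the tissues.

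To test each feature over lines, counts were summed per line and tissue, and 5 seed coat sums were compared with 5 embryo sums with line as a term (edgeR quasi-likelihood test, Benjamini-Hochberg adjustment, threshold 0.05). Of 36015 features tested, 11922 passed (33.1%), of which 7162 were higher in seed coat (19.9% of those tested) and 4760 higher in embryo (13.2%). The differences were larger on the seed coat side. The median absolute log2 difference among the features called was 2.99 for those higher in seed coat and 2.15 for those higher in embryo. At least 16-fold differences numbered 2960 for seed coat and 975 for embryo, and fitted log2 differences of at least 8 numbered 1005 for seed coat and 30 for embryo. With features that had no count in 1 tissue set to the lowest fold that a floor of 3 counts over the group allows, the numbers at or above 8 became 651 for seed coat and 16 for embryo.

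Most calls had a single direction in every line. The direction was the same in all 5 lines for 6411 of the 7162 features higher in seed coat and for 4360 of the 4760 higher in embryo. Among the 7162 features called higher in seed coat (19.9% of all tested), every seed coat library lay above every embryo library for 4459. Among the 4760 called higher in embryo (13.2% of all tested), every embryo library lay above every seed coat library for 2539. These counts cover only features called, and no such count over all features tested is given. The calls came from the same lines and libraries, which favours both a shared direction and separate groups. Among the features called, 546 of those higher in seed coat had no count in any embryo library, and 32 of those higher in embryo had none in any seed coat library. Of these, 228 averaged at least 1 CPM in seed coats, and 1 averaged at least 1 CPM in embryos. Among all 36015 features tested, 1372 had no count in any embryo library and 105 had none in any seed coat library. The features called higher in a tissue held 58.8% of the counts of the seed coats and 77.8% of the counts of the embryos.

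The balance of the calls depended on the scaling. The trimmed mean of M-values (TMM) factors that correct for differing composition were 1.22 to 1.57 for the seed coat sums and 0.64 to 0.92 for the embryo sums. Library totals in place of TMM were an alternative chosen after these factors were seen. With them the median log2 difference of all features was 0.89, against 0.15 under TMM. Then 11392 features were higher in seed coat and 2525 higher in embryo, so that seed coat calls made up 81.9% of all calls, against 60.1% under TMM. The differences below are relative to the TMM scale, and a bulk library cannot tell fewer cells of a type from less RNA per cell.

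**Figure D2:**
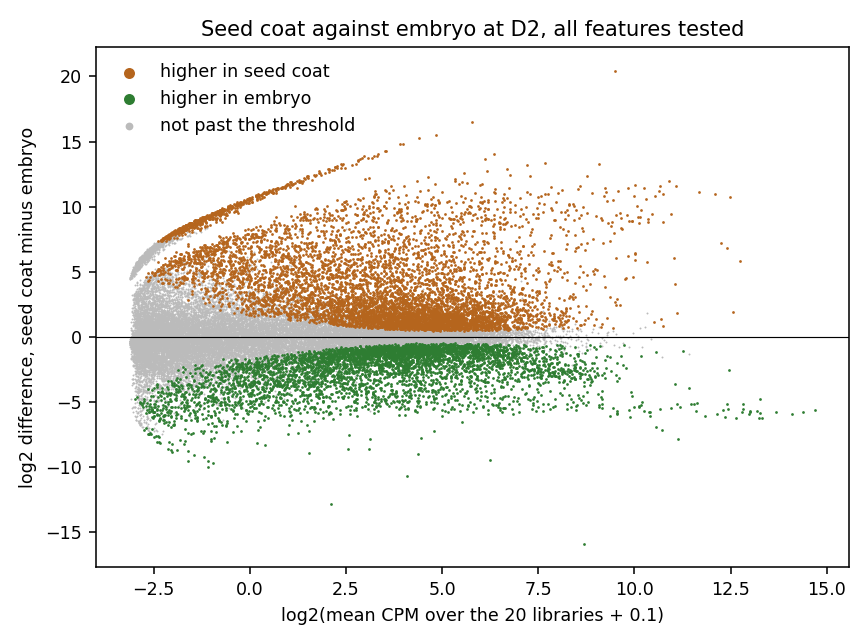
The log2 difference, seed coat minus embryo, of each of the 36015 features tested (vertical axis) against log2 of its mean CPM over the 20 libraries plus 0.1 (horizontal axis), coloured by call. The upper curved band is made of features with no count in the embryos, whose fitted difference is set by their seed coat level, and the abundant embryo features Psat0s4403g0040 and Psat3g058800 lie at -5.60 and -5.74.

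At most 2 features per direction are named. They are those with the highest level among features called, at least 16-fold different and of 1 direction in all lines, a condition that 2432 features met for seed coat and 786 for embryo. Values are normalised CPM, that is CPM of the TMM-scaled library total. Psat7g234440 ranged in the 10 seed coat libraries over 2932, 13580 and 19860 (lowest, median, highest) and in the 10 embryo libraries over 54.1, 142 and 399. The groups did not overlap, Cameor had the lowest seed coats at 2983 and 2932, and JI1794 had both the highest seed coats and the highest embryos. Its log2 difference was 5.86 with a standard error (SE) of 0.48 (58.2-fold, adjusted p = 6.1e-05, edgeR quasi-likelihood test). The locus Ps_DOR2genes.26311, outside the annotation, ranged over 4497, 9110 and 13875 in seed coats and over 0.948, 3.86 and 15.3 in embryos. Again no library crossed, and its log2 difference was 10.74 (SE 0.61, adjusted p = 1.39e-05, same test).

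The abundant embryo features were also present in the seed coat libraries. Psat0s4403g0040 ranged over 328, 1268 and 2280 normalised CPM in seed coats and over 13026, 69141 and 131185 in embryos. It was lowest in JI1794 in both tissues, and the groups did not overlap. The log2 difference was -5.60 (SE 0.35, 48.4-fold, adjusted p = 1.73e-05, edgeR quasi-likelihood test). Psat3g058800 ranged over 191, 1215 and 3001 in seed coats and over 16107, 58746 and 93492 in embryos, with a log2 difference of -5.74 (SE 0.37, 53.6-fold, adjusted p = 2.04e-05, same test). JI92 was lowest in both tissues, and the seed coats of JI64 gave 3001 in replicate 1 and 664 in replicate 2.

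On the scale that corrects for gene length (FPKM, fragments per kilobase and per M fragments), the highest mean level in seed coats belonged to Psat1g156800, with 6821 FPKM in seed coats and 2.62 FPKM in embryos. In normalised CPM it ranged over 2365, 7305 and 10569 in seed coats and over 1.04, 2.38 and 10.2 in embryos, with Cameor lowest among the seed coats. The groups were far apart, and its log2 difference was 10.96 (SE 0.64, adjusted p = 1.47e-05, edgeR quasi-likelihood test). The highest mean level in embryos was that of Psat0s4403g0040, with 982 FPKM in seed coats and 30467 FPKM in embryos.

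**Figure D3:**
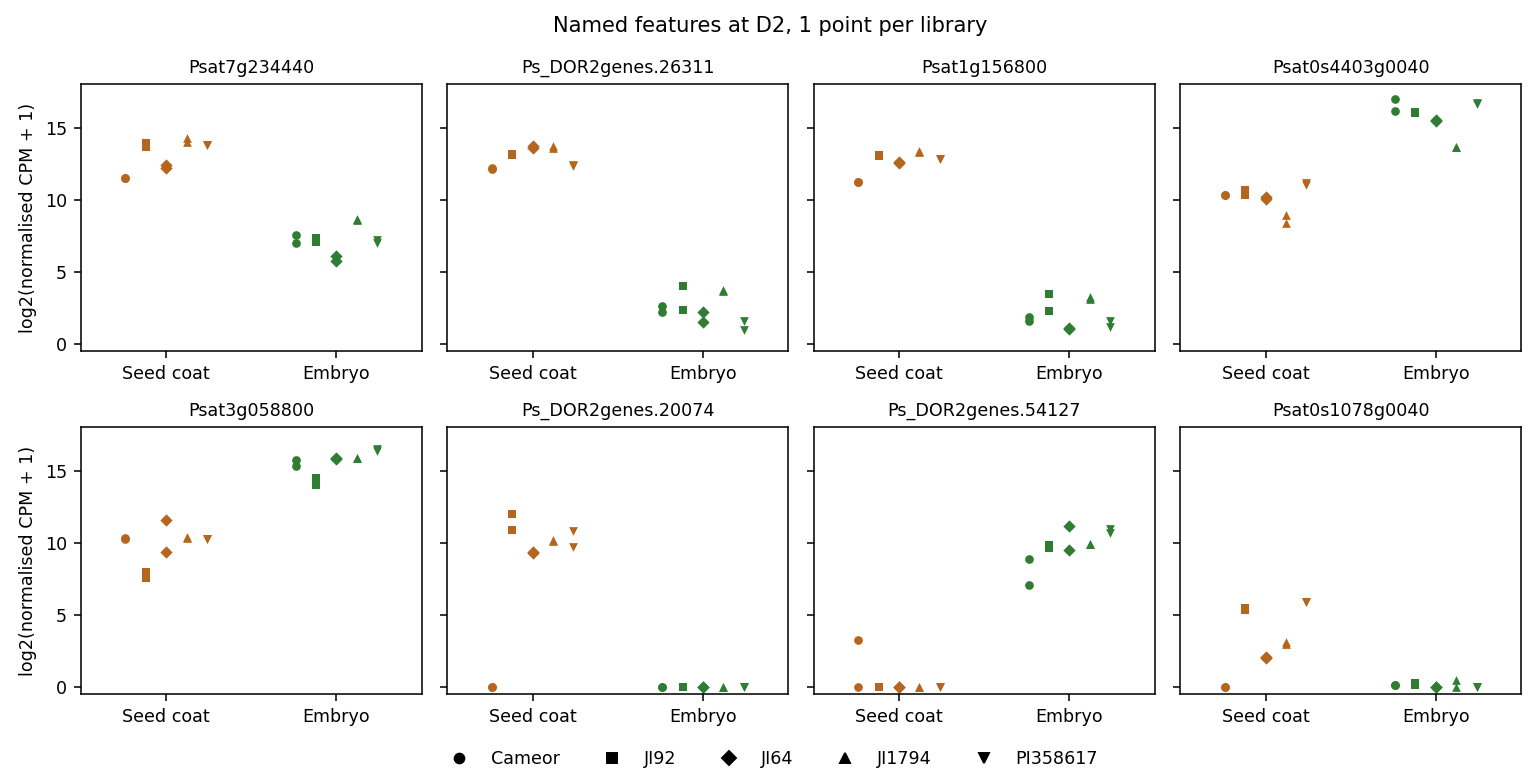
Level of 8 named features in each library, as log2(normalised CPM + 1), seed coat left and embryo right in each panel, with 1 symbol per line. The first 3 features are higher in every seed coat library, Psat0s4403g0040 and Psat3g058800 are higher in every embryo library, and Ps_DOR2genes.20074 and Psat0s1078g0040 are at 0 in the seed coats of Cameor.

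Lists of genes taken from JI261 served to check the tissue labels in the other 5 lines. Seed coat genes were those with at least 10 CPM in JI261 seed coats at D3 and D4 and at least 16-fold the embryo level, and embryo genes were the reverse. Of the 963 seed coat genes, 956 could be tested, and 916 were higher in seed coat and 0 higher in embryo, where 19.9% and 13.2% of all features were called. Their median log2 difference was 6.69, or 6.66 with genes lacking embryo counts at their bound, against 0.15 over all features tested. Of the 198 embryo genes, 189 could be tested, and 0 were higher in seed coat and 142 higher in embryo, with a median log2 difference of -4.72. The labels and the lists thus matched in direction in every line. The line medians ran from 6.10 (Cameor) to 7.10 (JI64) for seed coat genes and from -5.02 (PI358617) to -4.03 (JI64) for embryo genes.

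The lists also showed how much of each tissue's transcripts stood in libraries of the other. Seed coat genes held 21.2% to 37.8% of the counts of seed coat libraries and 0.180% to 0.312% of those of embryo libraries. Embryo genes held 0.462% to 1.35% of the counts of seed coat libraries and 17.11% to 28.5% of those of embryo libraries. JI92 was lowest among the seed coats, and replicate 1 of JI64 was highest at 1.35% (exact 95% binomial interval 1.346% to 1.351%), against 0.825% (0.823% to 0.827%) in replicate 2. Such intervals cover counting error only. Of the 198 embryo genes 6 had no count in any seed coat library, and of the 963 seed coat genes 27 had none in any embryo library. In each list, 2 of these genes had no count in either tissue at D2.

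The 20 most abundant genes of each list differed in how far they reached into the other tissue. In a seed coat library, the median CPM of the 20 embryo genes was 1.49% to 4.75% of their level in embryos of the same line. In an embryo library, the median of the 20 seed coat genes was 0.0277% to 0.118% of their level in seed coats of the same line. Single genes departed far from this median: Psat2g026840, singled out after its values were seen, was in PI358617 at 466.3% of its seed coat level in embryos, the next gene of that line was at 2.97%, and the highest gene of JI64 was at 52.8%. The embryo genes did not keep a single ratio within a library: in JI64 replicate 1 it ran over genes from 2.02% to 19.8%, with a median of 4.75%, and in replicate 2 from 0.661% to 7.05%, with a median of 3.21%. The smaller number of very large differences on the embryo side stood beside these levels, whose part in it was not tested. Without replicate 1 of the JI64 seed coat, a choice made after seeing the data, 7104 features were higher in seed coat and 4834 higher in embryo.

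**Figure D4:**
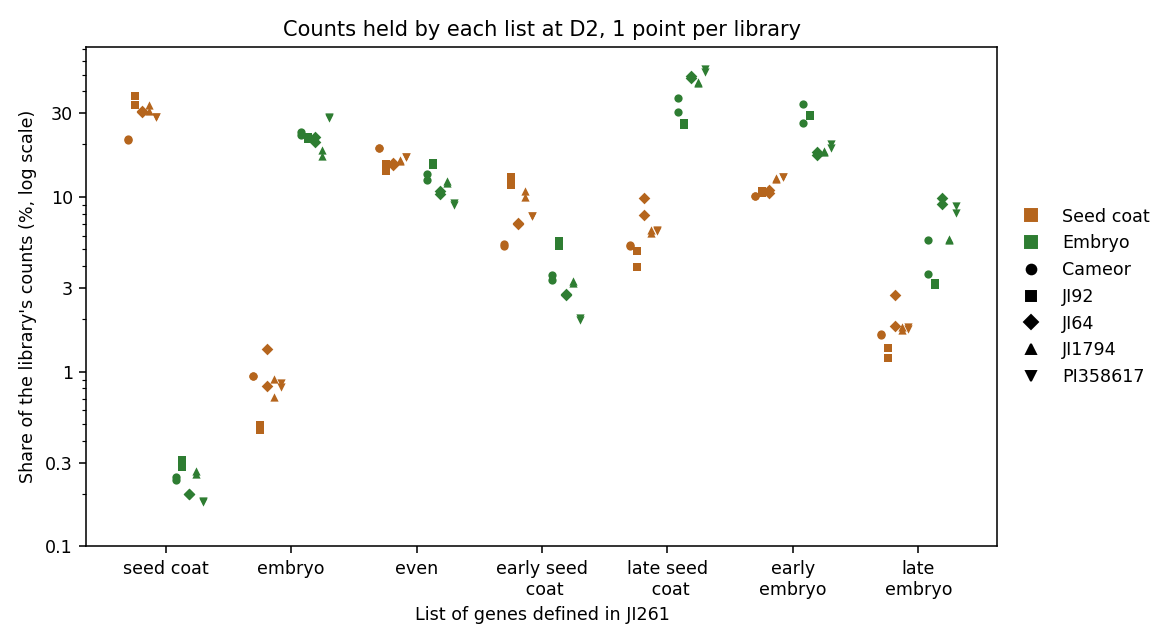
Share of each library's counts (vertical axis, %, log scale) held by 7 lists of genes defined in JI261 (horizontal axis), seed coat left and embryo right for each list, with 1 symbol per line. Seed coat genes hold 21.2% to 37.8% of seed coat counts and 0.180% to 0.312% of embryo counts, and late seed coat genes hold 3.97% to 9.87% of seed coat counts and 25.8% to 53.8% of embryo counts.

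Genes that mark the age of the seed split between the tissues. Early embryo genes were at least 8-fold higher in the JI261 embryo at D3 than at D5, and late embryo genes the reverse. Of the 1219 early embryo genes, 1218 were tested, and 141 were higher in seed coat and 726 higher in embryo at D2, with a median log2 difference of -1.50 against 0.15 for all features (19.9% called higher in seed coat and 13.2% higher in embryo). With library totals the numbers were 237 and 531 and the median was -0.72. Of the 451 late embryo genes, 430 were tested, and 159 were higher in seed coat and 116 higher in embryo, with a median of 0.62. With library totals these numbers were 190 and 99. Under TMM, 37.0% of the late embryo genes tested were thus called higher in seed coat and 27.0% higher in embryo, against 19.9% and 13.2% of all features. Both shares were above those of all features, where seed coat calls were also the more numerous. As a list the late embryo genes held 1.19% to 2.75% of seed coat counts and 3.14% to 9.78% of embryo counts.

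Early and late seed coat genes were defined in the same way between D1 and D5 of the JI261 seed coat. Of the 1009 early seed coat genes, 994 were tested, and 387 were higher in seed coat and 299 higher in embryo (median log2 difference 0.76), where 19.9% and 13.2% of all features were called; with library totals the numbers were 478 and 221. Of the 615 late seed coat genes, 595 were tested, and 313 were higher in seed coat and 167 higher in embryo (median 2.12), and with library totals 343 and 151. The late genes also held a large part of embryo counts, 3.97% to 9.87% in seed coats and 25.8% to 53.8% in embryos. Of the 100 most abundant embryo features, 48 were on this list, 31 on the early embryo list and 20 on the embryo list. The JI261 seed coats in which the late list was defined had 1.84% and 1.89% of their counts in embryo genes at D5, against 0.115% and 0.120% at D1, and the late seed coat list shared 52 genes with the embryo list (8.46% of the late list, 26.3% of the embryo list). The part of these levels in the late list was not tested.

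Under TMM, genes with like levels in the tissues of JI261 were called between the tissues over the other lines about as often as all features. They were called less often than features of Psat1g to Psat7g, of which 9600 of 21801 were called. All features include 11250 loci outside the annotation, which have no such minimum level and of which 1225 were called. The 2369 even genes, with at least 10 CPM in both JI261 tissues and less than 1.5-fold apart, had a median log2 difference of -0.15. Of the 2365 tested, 241 were higher in seed coat and 533 higher in embryo under TMM, together 32.7% against 33.1% of all features, whereas with library totals the numbers were 1037 and 55 and the median was 0.63. The direction of the even genes thus turned with the scaling. The line-by-tissue test described below called 1371 of the 2366 even genes it covered, a larger share than the 28.7% of all features (10706 of 37361). This was not particular to even genes. The other JI261 lists ran from 84 of 190 embryo genes to 952 of 1218 early embryo genes. The same test called 8851 of 22011 features of Psat1g to Psat7g and 847 of 12324 loci outside the annotation.

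Features of Psat1g to Psat7g were called more often than loci outside the annotation. Of the 21801 tested in the first kind, 26.7% were higher in seed coat and 17.37% higher in embryo. For Psat0s 21.2% and 15.97% of 2950 were, and for loci outside the annotation 6.43% and 4.46% of 11250 were. These loci held 3.38% to 6.12% of seed coat counts and 4.10% to 6.85% of embryo counts, so the tissues overlapped. Neighbouring identifiers carried like calls little more often than all features did. The next tested identifier was also higher in seed coat for 28.5% of the features called so, against 26.7% of all, and also higher in embryo for 20.2%, against 17.37% of all. The longest runs of 1 direction were 6 identifiers for seed coat and 7 for embryo, and the run of 7 went from Psat5g300400 to Psat5g300680.

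Each line was also tested alone, with its 2 seed coat libraries against its 2 embryo libraries in 1 fit that shared the estimate of the spread over the 20 libraries (edgeR quasi-likelihood test). Of 37361 features, 15272 were called in Cameor (40.9%), 14937 in JI92 (40%), 14408 in JI64 (38.6%), 14162 in JI1794 (37.9%) and 16404 in PI358617 (43.9%). Seed coat calls were the more numerous in every line, with 9166 higher in seed coat and 6106 higher in embryo in Cameor and with 8816 and 7588 in PI358617, the most even split. In all 5 lines, 4586 features were called higher in seed coat and 2710 higher in embryo. Between any 2 lines, 10097 to 10945 features were called the same way and 236 to 631 in opposite ways. These p-values measure the spread between libraries of a line, which may be technical.

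A few features were abundant in 1 tissue and at or near 0 in the other. Ps_DOR2genes.20074 had 1 of the 2 largest seed coat differences in each of 4 lines. Its normalised CPM in seed coats was 0 and 0 in Cameor, 1879 and 4023 in JI92, 624 and 654 in JI64, 1153 and 1136 in JI1794, and 1794.0 and 827 in PI358617, and it had no count in any of the 10 embryo libraries. A count of 0 allows up to 3 counts over the group, or 0.00575 normalised CPM on the TMM-scaled embryo total of 522 M. On that pooled floor its mean level over the 5 lines, with Cameor at 0, was at least 210267-fold higher in seed coat. Within single lines the bound was lower, from 21304-fold in JI64 to 111497-fold in JI92, and Cameor had none. At this depth the locus had no count in either tissue of Cameor, the line of the reference genome to which the reads were mapped.

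Ps_DOR2genes.54127 showed the converse. It was at 0 in 9 of the 10 seed coat libraries and at 8.50 in Cameor replicate 2, and it ranged over 135, 943 and 2253 normalised CPM in embryos. Embryo libraries of a line differed, with 135 and 477 in Cameor and 716 and 2253 in JI64, so the groups did not overlap but the level was uneven. Its log2 difference over lines was -15.87 with an SE of 2.47, a fitted value that depends on the seed coats at 0 (adjusted p = 0.00163, edgeR quasi-likelihood test). Psat5g183640 was more even in seed coats, with 459, 520 and 894 (lowest, median, highest), against 0, 0.196 and 1.25 in embryos. In PI358617, where no embryo count was found, it was at least 13319-fold higher in seed coat.

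Against the spread between libraries of a line and tissue, which may be technical, the tissue difference itself differed between lines for many features. A test of the line-by-tissue terms over the 20 libraries passed for 10706 of 37361 features (28.7%, edgeR quasi-likelihood test). Of the 11922 features that differed between the tissues over lines, 5276 were among them (44.3%), so that a shared direction often went with unequal sizes. Of the 10706, 3639 were called the same way in every line and 1799 were called in opposite ways in 2 lines. The line farthest from the others was Cameor for 2971 features (27.8%) and PI358617 for 2829 (26.4%), against 1428 to 1879 for each of the other lines. Without PI358617 the test called 6941 features.

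Psat0s1078g0040 and Psat7g203400 had the widest gaps between lines among features called with at least 10 CPM in a tissue. In seed coats Psat0s1078g0040 had normalised CPM of 0 and 0 in Cameor, 39.3 and 44.2 in JI92, 3.26 and 3.07 in JI64, 6.95 and 7.57 in JI1794, and 59.3 and 58.3 in PI358617, and it was at most 0.382 in embryos. Only the seed coats of Cameor lay within the embryo range (line-by-tissue adjusted p = 0.00235, edgeR quasi-likelihood test). Psat7g203400 had 23.9 and 21.7 in seed coats of Cameor, 11.7 and 17.19 in JI92, 7.13 and 6.73 in JI64, 6.88 and 6.86 in JI1794, and 0 and 0 in PI358617, and it was at most 0.326 in embryos. Here the seed coats of PI358617 were the ones without a count (line-by-tissue adjusted p = 0.00061, same test), and without that line the adjusted p was 0.345.

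Of the 5 features named for abundance, 3 passed the test of a difference between lines. For Psat7g234440 the log2 difference was 4.24 in Cameor, 5.54 in JI1794, 6.37 in JI64, 6.60 in JI92 and 6.67 in PI358617 (line-by-tissue adjusted p = 9.66e-05, edgeR quasi-likelihood test). Ps_DOR2genes.26311 ran from 9.88 in JI92 to 12.20 in JI64 (adjusted p = 0.0305, same test). Psat1g156800 ran from 9.98 in Cameor to 12.45 in JI64 (adjusted p = 0.00266, same test). For Psat0s4403g0040 and Psat3g058800 the test of a difference between lines did not pass (adjusted p = 0.0999 and 0.297, same test). Ps_DOR2genes.54127, at 0 in all but 1 seed coat library, passed with an adjusted p of 0.0411 (same test).

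Features with at least 10 CPM in the seed coats of 4 lines and under 0.1 CPM in those of the remaining line numbered 21 for Cameor, 8 for PI358617, 2 for JI64, 1 for JI1794 and 0 for JI92. All 21 of Cameor were under 0.1 CPM in its embryos too, as were 6 of the 8 of PI358617, both of JI64 and the 1 of JI1794 in theirs. In embryos the corresponding numbers were 3 for Cameor, 7 for PI358617, 2 for JI64, 4 for JI1794 and 0 for JI92. These are counts with no test.

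The series set wild against domesticated peas, and the class-by-tissue term was tested over JI64 and JI1794 as wild and Cameor and JI92 as domesticated lines. Of 33916 features, 0 passed (0% called, edgeR quasi-likelihood test on 8 sums), the lowest adjusted p was 0.925, and 1713 (5.05%) had an unadjusted p under 0.05. DESeq2 called 423 on the same sums. By list, embryos of the classes did not overlap in their share of early embryo genes, with 17.7% in JI64 and 18.1% in JI1794, against 30.2% in Cameor and 29.1% in JI92 (means of 2 libraries). Late seed coat genes ran the other way in the same embryos, with 48.5% in JI64 and 45.1% in JI1794, against 33.5% in Cameor and 26.1% in JI92. PI358617 was near the wild lines on the first measure at 19.5% and above them on the second at 52.9%. In embryos the mean shares of wild and domesticated lines did not overlap for 6 of the 7 lists, all but seed coat genes, but lists share genes and shares of 1 total move together. With 2 lines against 2, no permutation test can go below p = 0.333. In seed coats the line means of the classes did not overlap on either measure. On the first, the wild lines were slightly higher, unlike in embryos, with 10.7% in JI64 and 12.8% in JI1794, against 10.1% in Cameor and 10.6% in JI92. Single libraries overlapped there, with 10.9% and 10.5% in JI64 and 10.5% and 10.7% in JI92. On the second, the means were 8.87% in JI64 and 6.33% in JI1794, against 5.25% in Cameor and 4.44% in JI92.

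The tissue difference at D2 was then set beside those at D3 and D4 of the same 5 lines in 1 fit over 30 sums. Of 42355 features, 8749 were called at D2 (20.7%), 9615 at D3 (22.7%) and 7915 at D4 (18.7%). D2 and D3 shared 6043 calls of 1 direction (69.1% of the D2 calls, 62.8% of the D3 calls) and had 9 opposite ones. D2 and D4 shared 5466 (62.5% of the D2 calls, 69.1% of the D4 calls) and had 4 opposite ones. The stages are separate libraries of the same lines. The stage-by-tissue test called 0 features between D2 and D3 (0% called, 4213 with an unadjusted p under 0.05) and 0 between D2 and D4 (0% called, 3887 with an unadjusted p under 0.05) in edgeR. DESeq2 called 2200 and 2043, and without PI358617 edgeR called 241 and 232.

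The list medians moved between the stages. Early embryo genes had a median log2 difference of -1.52 at D2, 0.18 at D3 and 0.36 at D4, where 61, 182 and 218 of the 1219 genes were called higher in seed coat and 474, 135 and 101 higher in embryo. Late embryo genes had medians of 0.54 at D2, -2.44 at D3 and -2.09 at D4, where 116, 44 and 24 of the 450 tested were called higher in seed coat and 108, 177 and 140 higher in embryo. Of all features, 12.9%, 13.4% and 12.5% were called higher in seed coat and 7.74%, 9.34% and 6.23% higher in embryo at these stages. The median of all features was 0.17 at D2, -0.11 at D3 and 0.00 at D4. Under TMM the list median thus lay on the embryo side for early embryo genes and not for late ones at D2. At D3 and D4 it lay on the embryo side for late embryo genes and not for early ones. By share of counts, late embryo genes were higher in embryos at D2 too, with 3.14% to 9.78% against 1.19% to 2.75% in seed coats. The D3 and D4 medians were not recomputed with library totals. Seed coat genes had medians of 6.69, 6.55 and 6.39 at D2, D3 and D4, and embryo genes had medians of -4.72, -5.35 and -3.86. Embryo genes held 0.462% to 1.35% of seed coat counts at D2, 0.418% to 1.37% at D3 and 1.30% to 9.37% at D4, and the part of this in the D4 values was not tested.

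**Figure D5:**
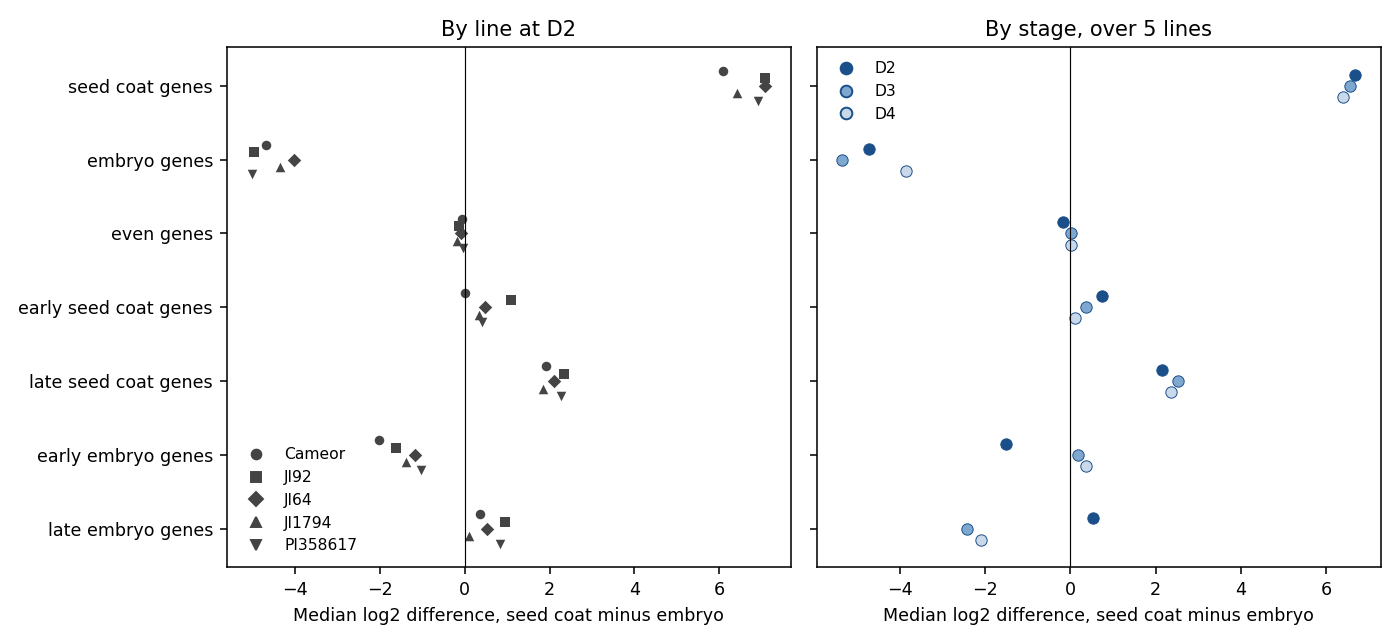
Median log2 difference, seed coat minus embryo (horizontal axis), of 7 lists of genes defined in JI261 (vertical axis), for each line at D2 (left panel) and over the 5 lines at D2, D3 and D4 (right panel). Early embryo genes lie at -1.52 at D2 and at 0.18 and 0.36 at D3 and D4, and late embryo genes lie at 0.54 at D2 and at -2.44 and -2.09 at D3 and D4.

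The lines varied around these D2 medians. For early embryo genes the median log2 difference was -2.02 in Cameor, -1.63 in JI92, -1.39 in JI1794, -1.17 in JI64 and -1.04 in PI358617. For late embryo genes it was 0.36 in Cameor, 0.94 in JI92, 0.10 in JI1794, 0.51 in JI64 and 0.83 in PI358617. The first was below 0 and the second above 0 in 5 of 5 lines under TMM. For early seed coat genes it was 0.02 in Cameor, which lay apart from JI92 at 1.09, with the other lines between 0.35 and 0.47.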

How the data were processed

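The authors deposited whole-number read counts per gene, not normalised, and FPKM values of the same features and libraries. Reads were mapped to the Cameor v1.0 genome, per the series' design text, and HISAT2 2.1.0 and StringTie 2.1.0 are named, without roles, per the submitters' processing notes. The counting rule, strandedness and handling of reads shared by near-identical or overlapping genes are, in the sources used here, not given, so such genes' counts are uncertain. Poly(A) RNA was enriched with oligo(dT) beads, per the labels' protocols.

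Counts were summed per line and tissue and tested in R 4.3.3 with edgeR 4.0.16 (robust quasi-likelihood fit and F test, TMM, filterByExpr, Benjamini-Hochberg over all features tested). The line-by-tissue and within-line tests used single libraries. SE is the absolute log2 difference over the square root of F. The median squared deviation between replicate libraries was 6.24 (Cameor seed coats) to 45.0 (JI92 seed coats) times that of sampling noise. It was 36.8 times in Cameor embryos and 27.5 times in JI92 embryos, and all libraries were kept. Of 59594 features, 20 shared 10 repeated identifiers and were left out of lists. None of the identifiers (0) matched the supplied RefSeq table. No per-sample column was left unused for lack of a sample. The procedure was tested on simulated data.

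Named features were, for seed coat against embryo, the 2 per direction with the highest CPM among those called, at least 16-fold and of 1 direction in all lines. For other comparisons they were the 2 called with the largest difference and at least 10 CPM, and for levels the highest mean FPKM. Members and lists were chosen with earlier results of these data known. Alternatives were RLE factors, library totals, no filter, DESeq2 1.42.0, limma 3.58.1 on FPKM (log2 with 1 or 0.1 added), single libraries, the replicate block and leaving out lines or replicates.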

Additional observations from a re-analysis of the deposited data

Results flagged for a closer look

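Among 30 groups of 5 line values tested for a value far from the others, 1 was found, where chance gives about 1 in 20. It was the number of features holding 50% of the counts in seed coats, highest in Cameor, whose gap to the next line was 0.742 of the whole range. Against the spread between libraries, the tissue difference differed between lines for 8 features named by the rule (edgeR's quasi-likelihood test of the line-by-tissue terms). The adjusted p was 9.66e-05 for Psat7g234440, smallest in Cameor, 0.00266 for Psat1g156800, largest in JI64, and 0.0305 for Ps_DOR2genes.26311, largest in JI64. It was 0.00235 for Psat0s1078g0040, at 0 in Cameor seed coats, and 0.00061 for Psat7g203400, at 0 in PI358617 seed coats. Of 3 loci higher in embryo over the lines, Ps_DOR2genes.54127 gave 0.0411, Ps_DOR2genes.15402 gave 0.0171 and Ps_DOR2genes.56267 gave 0.0155.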

How the results depend on the processing

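The 11922 calls between the tissues became 11848 with RLE factors, 13917 with library totals, 14010 with DESeq2 and 9444 to 10997 with a line or replicate left out. Library totals, added after seeing the data, gave 11392 features higher in seed coat and 2525 higher in embryo. limma on log2(FPKM + 1), also scaled by totals, gave 9479 and 2292, and on log2(FPKM + 0.1) 11137 and 2742. Single libraries as replicates gave 18429 (10791 and 7638). With the replicate block, although the numbers do not pair the libraries (correlations of deviations -0.11 to 0.11 by line), 17120 features were called between the tissues (10320 and 6800), 6166 by line and tissue, 254 by class and tissue, 3526 between D2 and D3 and 3461 between D2 and D4. Leaving out a line gave 6941 (without PI358617) to 12716 line-by-tissue calls. Class-by-tissue calls, 0 in edgeR with sums, were 423 with DESeq2 and 1797 with single libraries, and 0 with any line or replicate left out. Stage-by-tissue calls were 2200 and 2043 (D3 and D4) with DESeq2, 7525 and 6650 with single libraries, and 0 to 241 and 0 to 232 with a line or replicate left out. The share of the top 100 differed by -34.3 to -28.0 points and the features of at least 1 CPM by 2437 to 2849 over these omissions. The causes of these moves were not tested. Among named features, Psat0s1078g0040 missed the threshold under the replicate block (adjusted p = 0.0807, edgeR), as Psat7g203400 did without PI358617 (0.345), and Ps_DOR2genes.55445 without a filter within JI92 (0.0512) and JI64 (0.0645). No direction reversed. Line-by-tissue and within-line tests without a replicate were not run, as single libraries leave no residual degrees of freedom. The number of lines limits the tests on sums, and counts of 0 allow up to 3 counts per group.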
